A study of Bos taurus with 54 samples.

Results

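The 9 genes described here encode the heat shock factors HSF1 and HSF2, the heat shock factor binding protein HSBP1, 4 BAG co-chaperones (BAG1, BAG3, BAG5 and BAG6), the small heat shock protein HSPB1 and the collagen chaperone SERPINH1. They were chosen by symbol, as 9 of the 32637 genes in each count file. The RNA came from whole blood of 15 male Holstein calves kept in climate-controlled rooms, with red cells lysed before extraction. Blood was drawn in the morning before heat exposure (thermoneutral control, TN) and in the evening straight after 12 hours of heat (heat stress, HS), so heat, time of day and any handling in between cannot be told apart. Each RNA was sequenced from the 3′ end of its transcripts with 1 or both of 2 kits, SMART-Seq v4 3′ DE from Takara and QuantSeq 3′ from Lexogen, named below by maker. Of the 54 libraries, 52 entered the comparison of the times, with 13 TN and 13 HS libraries per kit and 12 calves sampled at both times in each kit. The sources disagree on the time of animal 20, whose 2 libraries were left out of that comparison.

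HSF1 is the transcription factor that forms trimers in heated cells and switches on chaperone genes. HSF2 is a related factor that can join it, and HSBP1 binds the trimer and holds its activity down. BAG proteins share a domain through which many of them bind HSP70 and promote the release of its nucleotide and client. They steer clients to different fates: BAG3 works with small heat shock proteins in selective autophagy, and BAG6 handles membrane proteins that fail to insert. HSPB1 holds unfolding proteins without ATP, and SERPINH1 assists procollagen in the endoplasmic reticulum.

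Takara libraries held 12210387 to 34976807 filtered reads. Lexogen libraries held 7126511 to 93690473, where the heat stress library of animal 15 had the highest number and the next library had 24041556. The counts carry no molecular identifiers. Levels below are CPM, counts scaled to a library total of 1000000, after TMM scaling, which sets libraries on a common scale through the genes that change least. Differences are log2 fold changes of HS against TN with their standard error (SE), from the quasi-likelihood test of edgeR. Its p-values were adjusted by Benjamini and Hochberg's method over all genes tested, and a gene was called at an adjusted p under 0.05.

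The blood held markers of several leukocytes, and the levels of some moved with time. In Takara libraries, the summed level of 13 neutrophil markers had a lowest, median and highest value of 4867, 12732 and 21224 CPM in TN and 4637, 43696 and 112649 CPM in HS, and 9 of the 11 tested were called higher. In Lexogen libraries the sum was 1400, 3905 and 7440 CPM in TN and 1906, 11109 and 33495 CPM in HS, with 6 of 9 tested called higher (0 when the animal was a block). Of 15 T cell markers, 7 were called lower in Takara (median log2 fold change -0.45), and their sum ran from 1405 to 2635 CPM in TN and from 858 to 2121 CPM in HS. Called markers of the other types in Takara were 1 of 10 for B cells (lower), 4 of 10 for monocytes (higher), 0 of 6 for platelets and 1 of 4 for red cell precursors (higher). That gene was the single 1 of the 4 with a positive log2 fold change. In the same Takara fit 28.9% of all genes were called, and 18.4% were called higher. The T cell count was 1 in the higher run of sample numbers alone, 5 in the lower run, 8 with the animal as a block, and 2 to 4 without any one of animals 7, 15, 16, 18, 23, 36 and 40. With the block, 5 B cell markers were called lower, 2 monocyte markers higher and 1 lower, and 0 of the red cell precursors; leaving out each animal in turn gave 0 to 3 lower calls for B cells and 2 to 4 higher calls for monocytes. In Lexogen, 0 of 14 T cell, 0 of 10 B cell and 1 of 10 monocyte markers were called, the last higher. That fit called 5.55% of all genes. The red cell markers HBA1 and CA1 were at 0 in all libraries compared with both kits, as was HBA in Lexogen. The part of these shifts in the results below was not tested, and in bulk blood fewer cells of a type and less RNA per cell cannot be told apart.

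With the Takara kit, HSPB1 was the single member that passed the test, and it was higher after heat. Its level in TN had a lowest value of 422, a median of 805 and a highest of 1072 CPM, and in HS these were 523, 1182 and 2183 CPM. The groups overlapped, but 8 of the 13 HS libraries lay above every TN library. The mean was 801 ± 175 CPM (SD, n = 13) in TN and 1177 ± 489 CPM (SD, n = 13) in HS. The log2 fold change was 0.55 ± 0.19 (SE; 95% interval 0.17 to 0.94), a 1.47-fold difference, with an adjusted p of 0.0264 in edgeR's quasi-likelihood test. HSPB1 was thus the 1 of 9 members called, in a comparison that called 3646 of all 12620 genes tested (28.9%; 18.4% higher). This model had time alone, and the call was lost with the animal as a block, as given below. HSPB1 encodes the ATP-independent holdase often called HSP27, and the gene lies on chromosome 25 at 34345420 to 34347022 in ARS-UCD2.0.

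**Figure D1:**
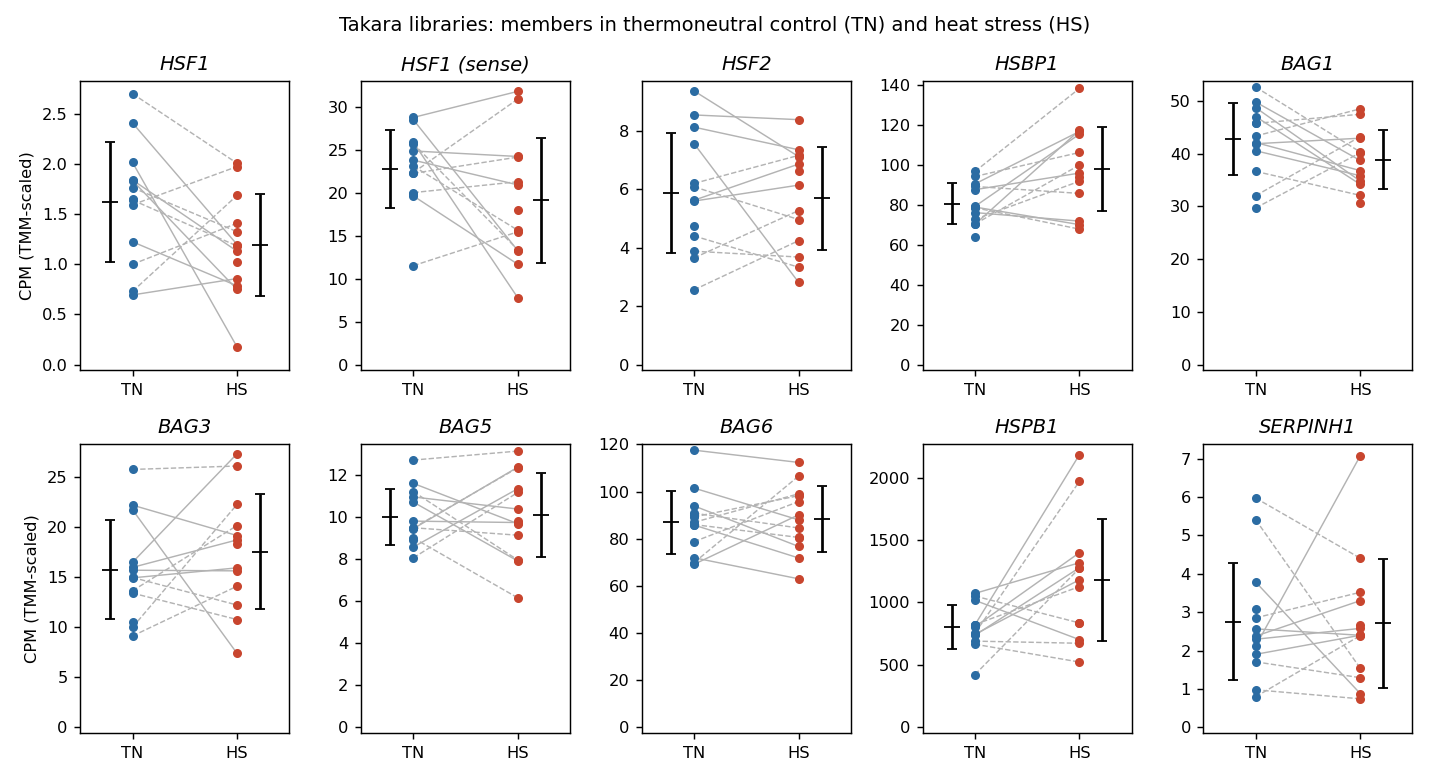
Level of each member in the Takara libraries, in TMM-scaled CPM on linear axes, for 13 thermoneutral control (TN) and 13 heat stress (HS) libraries. Points are libraries, lines join libraries of the same animal (solid for the lower and dashed for the higher run of sample numbers), and black marks give the mean and SD; HSPB1 in HS spans 523 to 2183 against 422 to 1072 in TN.

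Taking each calf as its own control, HSPB1 was higher after heat in 8 of 12 animals in Takara. The change ran from -0.53 on the log2 scale in animal 15 to 1.59 in animal 14, with a median of 0.56. Animals 12 and 32 also rose by more than 1 log2 unit, to 2183 CPM from 820 and to 1970 CPM from 753. With the animal as a block in the same test, HSPB1 kept a log2 fold change of 0.51 ± 0.20 but its adjusted p was 0.0687, so the call was lost (25.1% of all genes were called in that fit). The call was also lost without animal 12 (adjusted p = 0.0638 in edgeR's quasi-likelihood test), animal 18 (0.0549), animal 32 (0.0650) or animal 40 (0.0507), with log2 fold changes between 0.45 and 0.64 over the 14 fits. When library size was the plain total of counts on genes, the difference was 0.37 with an adjusted p of 0.20; that scaling moved the median of all genes from -0.05 to -0.27, and HSPB1 stood 0.61 above the median in the TMM fit and 0.64 above it in this one. Over all genes, higher and lower calls were 2325 and 1321 with TMM and 1303 and 2185 with the plain total.

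With the Lexogen kit HSPB1 did not pass the test. Its level was 41.9, 112 and 250 CPM (lowest, median and highest) in TN and 87.0, 141 and 364 CPM in HS. The groups overlapped, and 3 HS libraries lay above every TN library. The log2 fold change was 0.43 ± 0.24 (95% interval -0.06 to 0.93), with an adjusted p of 0.374 in edgeR's quasi-likelihood test. Counts of the gene per Lexogen library were between 359 and 7499 in the libraries compared. The cause of the spread was not tested. The test of the difference between the kits in the heat effect, over the 24 RNA samples with both libraries, gave -0.05 ± 0.22 (95% interval -0.49 to 0.40, Takara minus Lexogen) for HSPB1, and called 0 of 13354 genes (0%; 526 at an unadjusted p under 0.05).

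Both kits were prepared from the same RNA, and the HSPB1 changes of single animals can be read side by side. Animal 12 changed by 1.41 on the log2 scale in Takara and 1.46 in Lexogen, animal 14 by 1.59 and 1.81, and animal 32 by 1.39 and 2.0. Animal 3 changed by 0.45 in Takara and 0.97 in Lexogen, and animal 16 by -0.33 and -0.73. Signs were opposite between the kits in the other animals sampled at both times with both. Those were animal 18 (0.80 in Takara and -0.05 in Lexogen), animal 19 (0.79 and -0.89), animal 36 (-0.35 and 1.39), animal 40 (0.67 and -0.27) and animal 41 (0.30 and -0.17).

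**Figure D2:**
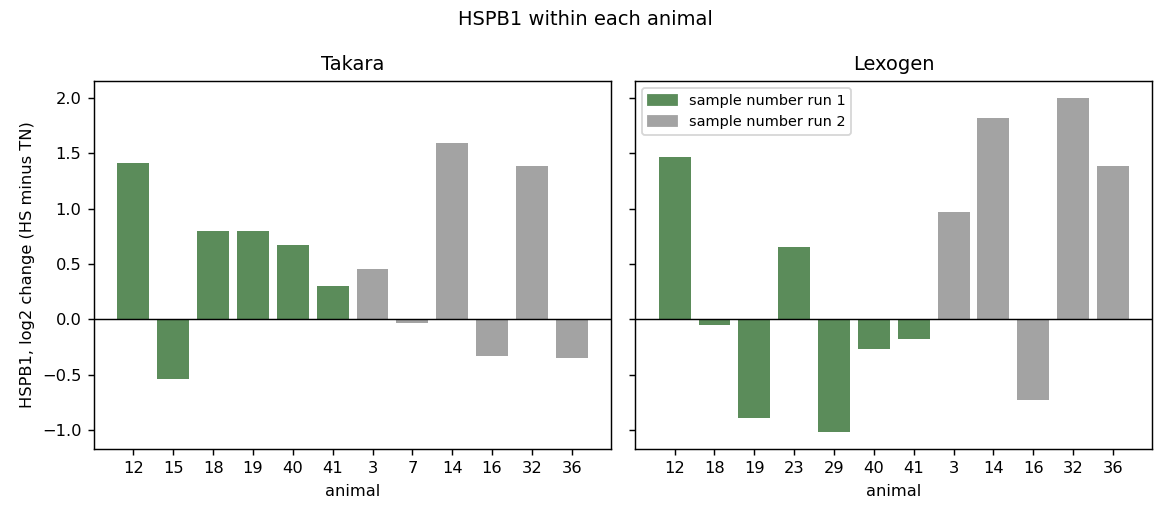
Change of HSPB1 within each animal, as log2 of HS over TN CPM (pseudocount 0.5), for the 12 animals sampled at both times with Takara (left) and with Lexogen (right). Bars are single animals, coloured by run of sample numbers; 8 of 12 bars are above 0 in Takara and 6 of 12 in Lexogen, where the lower run has 2 of 7 and the higher run 4 of 5 above 0.

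Sample numbers in the labels form 2 separate runs, taken as a possible batch although the labels do not call it one. In Takara, the HSPB1 difference was 0.55 ± 0.22 in the lower run (7 TN and 7 HS libraries) and 0.56 ± 0.30 in the higher run (6 and 6), with adjusted p of 0.0801 and 0.243 in edgeR's quasi-likelihood test. In Lexogen it was -0.03 ± 0.25 in the lower run and 1.14 ± 0.37 in the higher run. The difference between runs in Lexogen was 1.17 ± 0.44 with an unadjusted p of 0.0125, which did not survive adjustment (0.437 in edgeR's quasi-likelihood test). Across all members, the test of a difference between runs called 0 of 9 in Takara (312 of 13767 genes, 2.27%) and 0 of 8 in Lexogen (3 of 13484 genes, 0.0222%). At an unadjusted p under 0.05 stood 1 member in each kit, BAG1 in Takara and HSPB1 in Lexogen. So did 2236 of all 13767 genes in Takara and 1060 of all 13484 genes in Lexogen.

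The genes whose changes lay nearest to those of HSPB1 over the 12 Takara pairs were FKBP4, CACYBP and BAG2. The root mean square difference in log2 change from HSPB1 was 0.37 for FKBP4, 0.50 for CACYBP and 0.51 for BAG2, against a median of 1.12 over the 12619 other genes tested. FKBP4 is a peptidyl-prolyl isomerase that works with HSP90, and it was higher after heat in 10 of the 12 animals. CACYBP, a calcyclin binding protein, was higher in 8 of 12. BAG2, a BAG family gene that inhibits the ubiquitin ligase CHIP, was higher in 11 of 12.

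HSF1 itself could not be read from the unstranded counts alone. In Takara the unstranded column held 1 to 41 reads of HSF1 per library and the sense column 76 to 570, so that the unstranded total was 6.88% of the sense total. In Lexogen it was 15.0%. The other 8 members had unstranded totals between 93.3% and 105% of the sense total in both kits. HSF1 (chromosome 14, 614022 to 633762) overlaps DGAT1 (604179 to 614155), an enzyme of triglyceride synthesis, by 134 bp in the annotation used here. DGAT1 had 6152 antisense reads over the 27 Takara libraries, beside 6442 sense and 443 unstranded reads for HSF1. Reads that overlap genes on both strands are assigned to neither in an unstranded count, and strand separates them. BAG6 also overlaps a neighbour, APOM, by 2723 bp, with 99.6% (Takara) and 93.3% (Lexogen) of its sense total in the unstranded column.

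**Figure D3:**
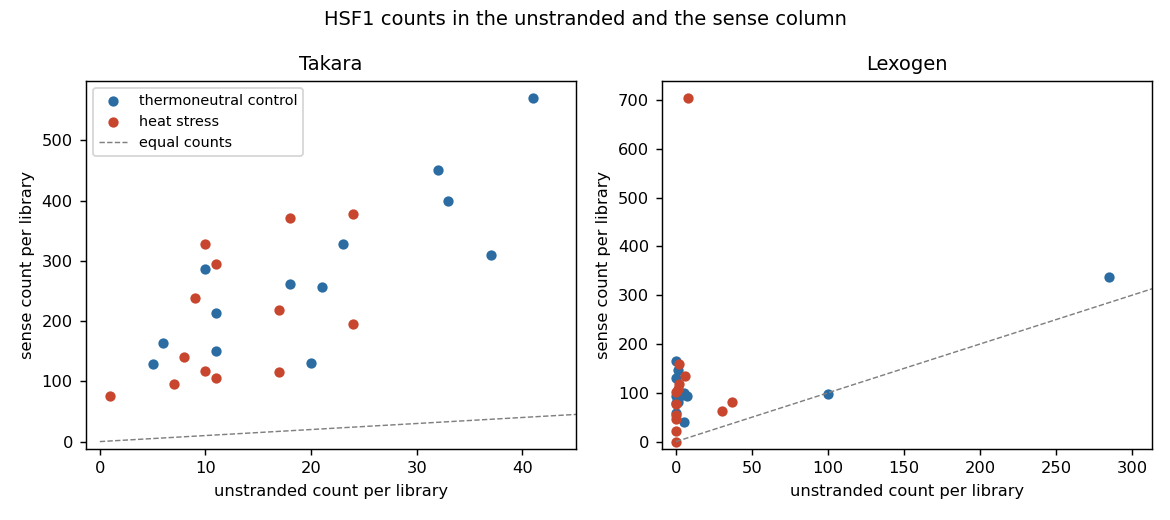
Reads counted for HSF1 per library in the unstranded column (horizontal) and in the sense column (vertical), on linear axes that differ between panels, for the 26 libraries of each kit in the time comparison. Points are libraries coloured by time and the dashed line marks equal counts; all Takara libraries lie far above it (unstranded 1 to 41, sense 76 to 570), and in Lexogen most sit near 0 on the unstranded axis.

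From the sense counts, HSF1 was not called with either kit. In Takara its sense level was 11.5, 23.1 and 28.8 CPM (lowest, median and highest) in TN and 7.76, 18.0 and 31.8 CPM in HS, and the groups overlapped across most of their range. The log2 fold change was -0.25 ± 0.18 (95% interval -0.61 to 0.11), with an adjusted p of 0.278 in edgeR's quasi-likelihood test. The sense level was lower after heat in 7 of 12 animals. In Lexogen the difference was -0.11 ± 0.43 with an interval from -1.0 to 0.77. In the unstranded counts the Takara difference was -0.44 ± 0.25 (adjusted p = 0.190 in edgeR's quasi-likelihood test), and Lexogen counts did not pass the filter on low values. The genes nearest to HSF1 in unstranded change over the 12 Takara pairs were CFAP46, ATP11A and SUOX, at root mean square differences of 0.47, 0.47 and 0.48 against a median of 0.99 over all genes, in the column that held few HSF1 reads.

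HSF2 (chromosome 9) was read at low levels. In Takara it was 2.56, 5.63 and 9.37 CPM in TN and 2.81, 6.15 and 8.39 CPM in HS, with full overlap of the groups. The log2 fold change was -0.05 ± 0.20 (95% interval -0.45 to 0.36). In Lexogen it was -0.27 ± 0.64, and 1 TN and 2 HS libraries had 0 reads of the gene.

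HSBP1 (chromosome 18) was nearest to the threshold among the members that were not called in Takara. Its level was 64.0, 79.0 and 96.8 CPM in TN and 67.9, 96.02 and 138 CPM in HS. The groups overlapped, and 6 HS libraries lay above every TN library. The log2 fold change was 0.28 ± 0.11 (95% interval 0.06 to 0.50), with an adjusted p of 0.0506 in edgeR's quasi-likelihood test, and 8 of 12 animals were higher after heat. Its side of the threshold changed with small choices: it was called with DESeq2 (adjusted p = 0.0356), with DESeq2's size factors in edgeR (0.0395) and with sense counts (0.0494), in fits that called 16.8%, 28.5% and 29.4% of genes, and it was at 0.120 with the animal as a block. With the plain total as library size its difference was 0.01 and its adjusted p 0.945, and HSBP1 stood 0.33 above the median of all genes with TMM and 0.28 above it with the plain total. In Lexogen the level was 7.32, 30.8 and 46.9 CPM in TN and 15.1, 32.2 and 53.8 CPM in HS, with a difference of -0.05 ± 0.27.

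None of the 4 BAG members was called after heat with either kit. These comparisons called 28.9% of all genes in Takara and 5.55% in Lexogen. BAG1, which binds the ATPase domain of HSP70 and was first known as a partner of BCL2, was 29.7, 43.4 and 52.6 CPM in TN and 30.6, 38.7 and 48.5 CPM in HS in Takara. The groups overlapped, with a log2 fold change of -0.14 ± 0.10 (adjusted p = 0.286 in edgeR's quasi-likelihood test). In the lower run of sample numbers BAG1 was called lower, at -0.33 ± 0.11 (adjusted p = 0.0376 in edgeR's quasi-likelihood test, in a fit that called 20.6% of genes), and in the higher run it was 0.10 ± 0.17. The test of that difference gave 0.40 ± 0.18 with an adjusted p of 0.279. The sense counts in the lower run gave -0.31 with an adjusted p of 0.0516. With the plain total as library size and both runs, BAG1 was called lower, at -0.37 ± 0.13 (adjusted p = 0.0344 in edgeR's quasi-likelihood test, in a fit that called 27.6% of genes), which is 0.10 below the median of all genes there and 0.08 below it with TMM.

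BAG3, the family member tied to HSPB8 and autophagy, was 9.13, 15.0 and 25.8 CPM in TN and 7.39, 18.3 and 27.4 CPM in HS in Takara. Its difference was 0.16 ± 0.18 (95% interval -0.21 to 0.53), and 7 of 12 animals were higher after heat. BAG5, which carries several BAG domains in a row, changed by 0.01 ± 0.11, with a range of 8.06 to 12.7 CPM in TN and 6.16 to 13.1 CPM in HS. BAG6, which guides tail-anchored proteins to the endoplasmic reticulum, changed by 0.02 ± 0.10, with a range of 69.2 to 117.6 CPM in TN and 63.0 to 112 CPM in HS. For BAG5 and BAG6 the 95% intervals lay within -0.22 and 0.24 in Takara.

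In Lexogen the BAG members had much wider intervals. BAG5 had the highest estimate, 0.71 ± 0.56 (95% interval -0.44 to 1.86), from 0 to 11.7 CPM in TN and 0.519 to 28.1 CPM in HS. BAG3 changed by 0.03 ± 0.34, BAG1 by -0.21 ± 0.34 and BAG6 by -0.25 ± 0.36. A single HS library of BAG3, from animal 12, held 2 reads of the gene (0.268 CPM), while the HS libraries of the gene reached 59.4 CPM in animal 18.

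SERPINH1 (chromosome 15), the collagen chaperone HSP47, was read at the margin of detection in these blood samples. In Takara it had 5 to 99 reads per library, and its level was 0.795, 2.37 and 5.97 CPM in TN and 0.741, 2.40 and 7.07 CPM in HS. The groups overlapped, with a log2 fold change of 0.01 ± 0.31 (95% interval -0.63 to 0.65). In Lexogen 6 TN and 10 HS libraries had 0 reads, and the gene was removed by the filter.

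**Figure D4:**
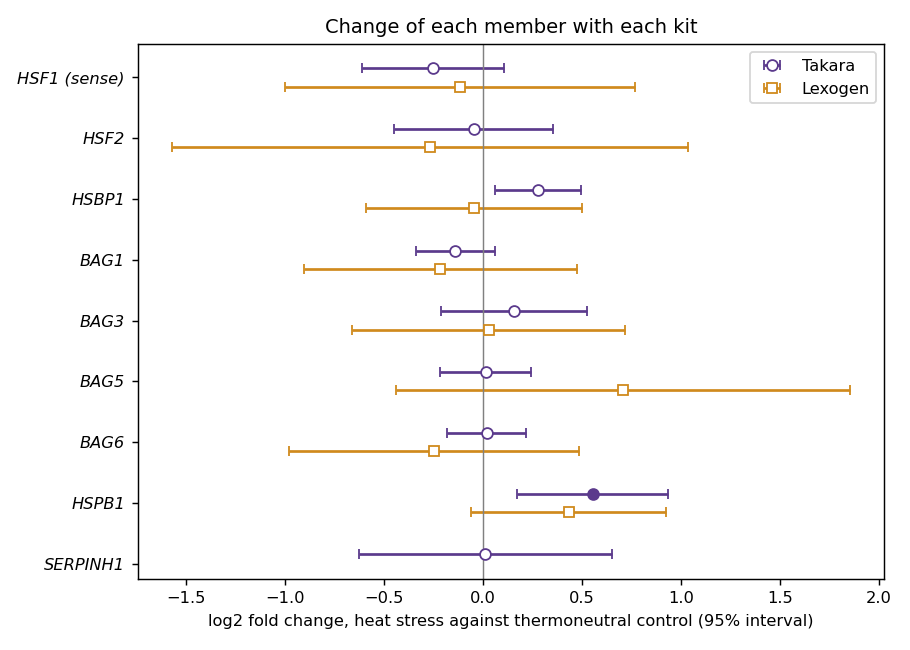
Log2 fold change of HS against TN for each member with Takara (circles) and Lexogen (squares); bars are 95% intervals, HSF1 is from sense counts and the other members from unstranded counts, and SERPINH1 was not tested in Lexogen. Filled symbols passed an adjusted p of 0.05 in the model with time alone. HSPB1 in Takara, at 0.55, is the single filled symbol, and its call was lost with the animal as a block.

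Over the 9 members, the median log2 fold change in Takara was 0.01, beside -0.05 over all genes tested. In Lexogen the 7 members tested had a median of -0.05, beside -0.08 over all genes, and 0 of 7 were called in a comparison that called 616 of 11108 genes (5.55%). The lowest unadjusted p among the 7 was 0.0819 in edgeR's quasi-likelihood test, for HSPB1. Thus 0 members were under 0.05 before adjustment, beside 1877 of all 11108 genes. DESeq2 called 0 members as well (4.66% of genes called). The SE of a member ran from 0.10 to 0.31 in Takara and from 0.24 to 0.64 in Lexogen.

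**Figure D5:**
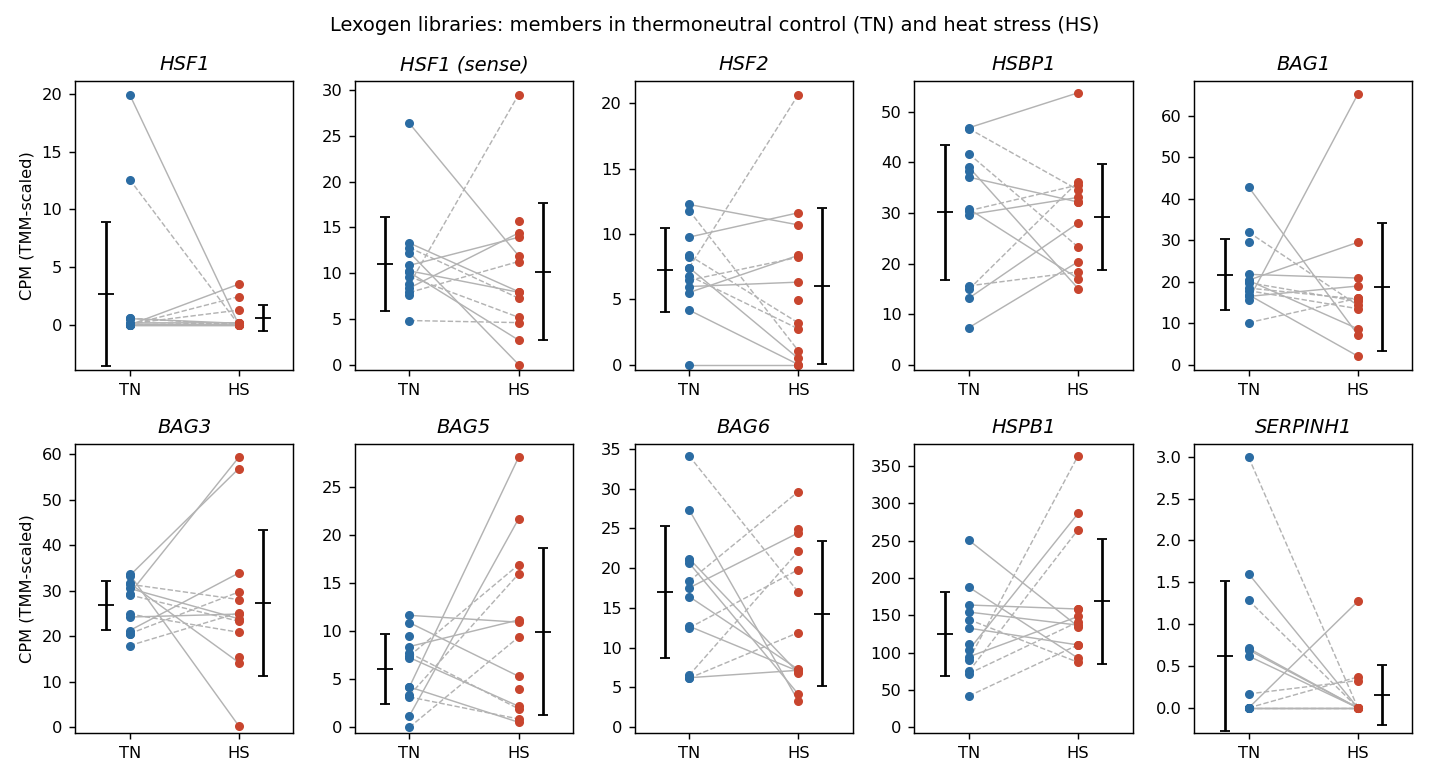
Level of each member in the Lexogen libraries, in TMM-scaled CPM on linear axes, with points, lines and black marks as for Takara (13 TN and 13 HS libraries; mean and SD). The groups overlap for each of the 9 members, SERPINH1 is at 0 in 6 TN and 10 HS libraries and unstranded HSF1 in 5 TN and 6 HS libraries, and single libraries at or near 0 occur for HSF2, BAG3 and BAG5.

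Genes that HSF1 is known to switch on were taken as a list beside the members. Of 18 chaperone genes known as HSF1 targets, 11 were called higher and 0 lower in Takara, beside 18.4% of all genes called higher, with a median of 0.52 against -0.05 over all genes tested. HSPA1A, an inducible HSP70, went from 23.6 ± 8.03 CPM in TN to 134 ± 274 CPM in HS (SD, n = 13), a log2 fold change of 2.51 ± 0.50 in Takara and 2.57 ± 0.47 in Lexogen. Its SD in HS was above its mean, so that mean does not describe a typical calf. By the plain total, the 26 Takara libraries of both times had a median of 33.9 CPM. The highest HS library was at 755 CPM and the highest TN library at 41.2 CPM. HSPA1A has near-identical copies, and reads that map to more than 1 place were not counted. HSPH1, a nucleotide exchange factor of HSP70, changed by 1.28 ± 0.22 in Takara and 1.39 ± 0.33 in Lexogen. HSP90AA1, the inducible HSP90, changed by 1.27 ± 0.23 and 0.94 ± 0.18. These 3 genes were the members of the list called in Lexogen, where 5.55% of all genes were called. When the animal was a block, 11 of 18 were called in Takara and HSPA1A alone in Lexogen. The adjusted p in Lexogen was then 0.139 for HSPH1 and 0.0639 for HSP90AA1 in edgeR's quasi-likelihood test. With the plain total as library size, 6 of 18 were called in Takara.

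Among 14 tested genes whose products modify or bind HSF1, 4 were called higher and 1 lower in Takara, where 28.9% of all genes were called (18.4% higher). EP300 and CREBBP, acetyltransferases that act on HSF1, were called in both kits, with changes of 0.81 ± 0.21 and 0.91 ± 0.22 in Takara and 0.67 ± 0.19 and 0.88 ± 0.21 in Lexogen. When the animal was a block, the count of higher calls was 2 in Takara, CREBBP among them (EP300 had an adjusted p of 0.0661 in edgeR's quasi-likelihood test), and 0 in Lexogen. The median of the list was 0.01 in Takara and -0.10 in Lexogen.

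The lists of relatives and partners that follow are read beside the 28.9% of all genes called in Takara (18.4% higher). Of 4 other heat shock factor and BAG genes tested, BAG2 was called in Takara, at 0.49 ± 0.17 (adjusted p = 0.0333 in edgeR's quasi-likelihood test), and it was 0.26 with an adjusted p of 0.29 with the plain total as library size; the call was also lost without animal 18, 19, 32 or 40. In Lexogen BAG2 was -0.0019 ± 0.39. Of the 2 other small heat shock genes tested in Takara, HSPB2 was called, from 2.50 ± 1.62 CPM in TN to 10.6 ± 8.73 CPM in HS (SD, n = 13), a log2 fold change of 2.05 ± 0.42. The small heat shock list had 0 genes tested in Lexogen.

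Among 7 tested genes listed as partners of BAG3, 2 were called higher in Takara, beside 18.4% of all genes. Binding of their products to BAG3 was not tested. GABARAPL1, an autophagosome protein, changed by 0.86 ± 0.22 in Takara and 0.79 ± 0.23 in Lexogen, where the call was lost with the animal as a block (adjusted p = 0.135 in edgeR's quasi-likelihood test). Of 10 genes listed as partners of BAG6, UBQLN1 was called in Takara alone. UBQLN1, which shuttles ubiquitinated proteins to the proteasome, changed by 0.57 ± 0.15 there and by 0.08 ± 0.23 in Lexogen. With the plain total as library size its Takara adjusted p was 0.0982. Of 10 tested genes listed as collagens and collagen-processing genes, 3 were called higher in Takara, beside the same 18.4%. All called were enzymes, and the single collagen tested was not called. The count was 2 with the animal as a block and 1 with the plain total as library size. P4HA1, a prolyl hydroxylase subunit that acts on procollagen, changed by 1.83 ± 0.31 in Takara and 1.28 ± 0.25 in Lexogen.

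The kits also differed in how they read the members in the same RNA, over 25 RNA samples with a library of both kits. Of the 8 members tested, 5 were higher in Takara and 1 was lower, in a comparison that called 8971 of 12402 genes (72.3%; 40.5% higher and 31.8% lower in Takara), where most genes differ. Medians and counts of samples in this paragraph are CPM of the plain total, without TMM scaling, and differences are from the TMM fit. HSPB1 was higher in Takara in 25 of 25 RNA samples, with a median of 915 against 129 CPM. Its log2 difference was 2.31 ± 0.11, and 2.80 with the plain total. BAG6 was higher in 25 of 25, with a median of 82.3 against 18.0 CPM, a difference of 2.13 ± 0.18 and 2.61 with the plain total. HSBP1 differed by 1.17 ± 0.13 and BAG1 by 0.72 ± 0.17. BAG3 went the other way, at -1.18 ± 0.22, and was higher in Takara in 2 of 25 RNA samples. The median of all genes in this comparison was 0.22, and 0.71 with the plain total as library size, under which the direction of these calls was kept.

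SERPINH1 was at 0 in 15 of the 25 Lexogen libraries and had reads in all 25 Takara libraries of the same RNA; its log2 difference of 4.0 ± 0.64 rests on these few reads. HSF2 and BAG5 were not called between kits, at -0.31 ± 0.47 and 0.30 ± 0.35; BAG5 was called with the plain total (0.79, adjusted p = 0.0383 in edgeR's quasi-likelihood test, in a fit that called 74.4% of genes). HSF1 did not pass the filter in unstranded counts, and by sense counts it was higher in Takara by 0.68 ± 0.21 (adjusted p = 0.00427 in edgeR's quasi-likelihood test, in a fit that called 73.1% of genes). The coefficient of variation of BAG1 was 15.8% in Takara and 39.2% in Lexogen over the 13 TN libraries. Over the 13 HS libraries it was 14.3% and 82.9%, and the Lexogen value was 47.1% without the library of animal 12 (65.3 CPM). For BAG6 it was 15.3% and 49.0% in TN and 15.9% and 63.6% in HS. For HSPB1 it was 21.9% and 44.7% in TN and 41.6% and 49.6% in HS. BAG3 went the other way in TN, at 31.4% in Takara and 20.3% in Lexogen, but not in HS, at 32.9% and 58.5%.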

How the data were processed

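Per the labels, the authors used Trimmomatic 0.39 for trimming and STAR 2.7.10b for mapping (ARS-UCD2.0), and deposited raw counts per gene, not normalized: an unstranded, a sense and an antisense count, below 4 total rows (32.2% to 57.9% of reads, left out). The unstranded count was the main measure and the sense count an alternative. The 9 members and the gene lists were chosen with earlier results of these data known. Counts were compared with edgeR 4.0.16 (filterByExpr, TMM, time alone) in R 4.3.3, and with DESeq2 1.42.0 as an alternative. Calves are the replicates, but the main model treats both samples of a calf as independent, as the study did. The same calf gave both times, so the animal pairs libraries: centred levels correlated above 0.1 in 11 of 12 pairs in Takara and 2 of 12 in Lexogen, and a fit with the animal as a replicate block was run. The interaction of kit and time had the RNA sample as a block. Displayed changes per animal used a pseudocount of 0.5 CPM. Members are all described. From each list were named genes called in both kits and the called gene with the largest change in Takara, besides the 3 genes nearest to each of HSPB1 and HSF1, the members with the largest changes in unstranded Takara counts. Cell marker lists are given as counts. Positions come from the RefSeq table of ARS-UCD2.0, and of 32637 gene IDs 30271 matched a symbol. Steps were tested on simulated data.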

Additional observations from a re-analysis of the deposited data

Results flagged for a closer look

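The libraries of animal 20 stood outside the comparison of the times. The labels place them in heat stress and the study's own sample table fits the thermoneutral control. Levels here are CPM of all counts on genes, without TMM scaling. Members were flagged when above every TN library of the kit, and the share of all genes above theirs was not computed. In the Takara library of animal 20, HSPB1 reached 3259 CPM, above all 26 other Takara libraries, of which the TN libraries ended at 1185 CPM and the HS libraries at 2318 CPM. In its Lexogen library HSPB1 reached 1252 CPM, above all 26 others, with TN libraries up to 279 CPM and HS libraries up to 378 CPM. SERPINH1 in the Takara library was at 7.12 CPM on 65 reads, above the highest TN library (6.29 CPM) and below 1 HS library. BAG3 in the Lexogen library was at 35.7 CPM on 423 reads, above the highest TN library (33.995 CPM) and below 2 HS libraries. HSF2 and BAG6, not flagged, were each below 24 of the 26 other Takara libraries. In Lexogen, HSF2 was below 19 of 26 and BAG6 below 6 of 26. With animal 20 counted as heat stress, the HSPB1 difference was 0.84 ± 0.25 in Takara (adjusted p = 0.0122 in edgeR's quasi-likelihood test) and 0.98 ± 0.34 in Lexogen (0.0769). With animal 20 counted as thermoneutral control it was 0.10 ± 0.30 and -0.29 ± 0.38, and 0 genes were called in Takara (3804 at an unadjusted p under 0.05).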

How the results depend on the processing

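Of 387 recomputed log2 differences of single members, 312 kept their direction and their side of the threshold, 23 crossed it and 52 changed sign (differences between runs were counted for HSPB1, BAG1 and HSF1 in Takara and HSPB1 in Lexogen, and between kits in the heat effect for HSPB1); 0 of those 52 were called under either setting. The 387 include, for each member, 14 Takara fits that each left out 1 animal. A member called under neither setting counts as keeping its side. The number of members called in Takara was 1 as reported. With the animal as a replicate block, unstranded or with sense counts, it was 0 (25.1% and 26.3% of all genes called). It was 2 with sense counts (29.4%), DESeq2 (16.8%), DESeq2's size factors (28.5%) and animal 20 as heat stress (33.2%), HSBP1 joining HSPB1. It was 0 with animal 20 as thermoneutral control (0%), in the lower run with sense counts (20.6%) and in the higher run with unstranded (7.35%) or sense counts (7.16%). With the plain total (27.6%) and in the lower run with unstranded counts (20.6%) the single member called was BAG1, lower. HSPB1 was called in 5 of 13 Takara alternatives. Leaving out each animal in turn gave 0 to 2 members called, and HSPB1 was called in 10 of those 14 fits. The paired fit changed no other call of a member. Sense counts with the block, by run and in the run test, and leaving out animals, were chosen after seeing the data.

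Among the differences counted here, signs changed as follows in Takara. In the higher run HSF1 was 0.031, HSF2 0.13 (0.14 with sense counts), BAG1 0.10 (0.088) and SERPINH1 -0.28 (-0.29). In the lower run BAG6 was -0.14 (-0.13). With the plain total BAG3 was -0.061, BAG5 -0.20, BAG6 -0.23, SERPINH1 -0.14 and the HSPB1 difference between runs 0.17. With the block BAG5 was -0.0090 and SERPINH1 -0.013 (-0.0069 with sense counts). BAG5 was -0.00042 without a filter and -0.044 with animal 20 as heat stress. BAG6 was -0.00034 with sense counts. With animal 20 as control BAG6 was -0.0048 and SERPINH1 -0.24. Outside that count, the Takara difference between runs was -0.066 for HSBP1 and -0.011 for BAG5, and 0.10 and 0.17 with the plain total. Leaving out animals gave ranges of -0.083 to 0.046 for HSF2, -0.025 to 0.055 for BAG5, -0.041 to 0.044 for BAG6 and -0.22 to 0.17 for SERPINH1.

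In Lexogen, HSF2 was 0.079 and HSBP1 0.0034 in the higher run with sense counts, and HSBP1 was 0.074 with the block (0.035 with sense counts). BAG3 was -0.15 with the block (-0.16), -0.032 with the plain total, -0.0077 with animal 20 as control and -0.034 in the lower run (-0.0029). BAG6 was 0.33 in the higher run (0.32). HSPB1 was -0.29 with animal 20 as control and -0.027 in the lower run. The difference between kits in the HSPB1 heat effect was 0.0093 with sense counts, and the level of HSF2 between kits was 0.16 with the plain total and 0.21 in heat stress RNA alone. The causes were not tested. Genes called in Lexogen fell from 616 to 66 with the block and rose to 3273 without a filter and 1006 with DESeq2. SERPINH1 had 5 to 99 reads per Takara library, and the part of depth in its spread was not tested.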

Other observations

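The HSF1 target list was looked at in animal 20 after the values of HSPB1 were seen. In its Takara library, 11 of the 18 target chaperones were at their highest over all 27 libraries, while 3.88% of the 12899 genes with a mean of at least 10 reads were. In its Lexogen library 7 of 18 were, against 3.68% of 12972 genes. HSPA1A stood at 2155 CPM in the Takara library, beside at most 41.2 CPM in the TN libraries and 755 CPM in the highest other library. In the Lexogen library HSPA1A stood at 1762 CPM, beside at most 35.6 and 597 CPM. HSP90AA1 was at 7276 CPM in Takara and 10524 CPM in Lexogen, and the highest other libraries were at 4695 and 4414 CPM. BAG1 and BAG5 were below all 26 other Takara libraries, at 22.5 and 3.40 CPM. The Lexogen library did not show this. There BAG1 was at 17.2 CPM, with 13 libraries above and 13 below. BAG5 was at 5.74 CPM, with 14 above and 12 below. The share of all genes at their lowest in animal 20 was not computed.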
